A study of Mus musculus with 9 samples.

Results

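*Pax6*, *Emx2*, *Lhx2*, *Nr2e1*, *Olig2*, *Nfia* and *Nfib* encode transcription factors of cortical progenitors, and CTCF peaks around these 7 genes were compared between neural stem cells (NSCs) of 3 *Smchd1* genotypes. Every merged CTCF peak that overlapped a gene body or its 20 kb on either side was taken (GRCm38, GENCODE M21), which gave 161 of 225769 peaks. The broad peaks over the starts of *Nr2e1* and *Olig2*, beside and across *Emx2* and downstream of *Lhx2* differed by at most 0.22 between genotypes on the log2 scale. Other broad peaks differed more, such as one upstream of *Nr2e1* (0.49 between the mutants) and one downstream of *Lhx2* (-0.59 between the deletion and control). At *Pax6* several peaks were lower in cells with *Smchd1* deleted, the tallest of them 1.83-fold lower than in control. Over the 60 peaks of *Nfia* the median log2 difference from control was 0.12 in the MommeD43-GFP point mutant and 0.18 in the deletion, against 0.0069 and -0.036 over all peaks.

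CTCF is a zinc finger protein that binds a long DNA motif in a set orientation, halts cohesin there and so shapes chromatin loops and domain borders. SMCHD1 is a non-canonical SMC protein that silences genes on the inactive X chromosome and at several autosomal clusters, and the study asked whether its loss or mutation alters CTCF binding. The 7 factors act in dividing cells of the embryonic cortex. *Pax6* (paired homeodomain), *Emx2* (homeodomain) and *Lhx2* (LIM homeodomain) pattern the cortex and keep its progenitors in place, *Nr2e1* (the orphan nuclear receptor Tlx) sustains stem cell self-renewal, *Olig2* (bHLH) directs the oligodendrocyte lineage, and *Nfia* and *Nfib* (nuclear factor I) drive the change from neuron to glia production.

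The cells were female primary NSCs grown from cortices of C57Bl/6 embryos at E14.5. MommeD43-GFP lines (3 libraries) were homozygous for a GFP-tagged *Smchd1* allele that also carries the MommeD43 point mutation. *Smchd1* del/del lines (Smchd1_del, 2 libraries) had a floxed allele, for which the labels name no GFP tag, deleted in culture by Cre from a puromycin retrovirus. Control lines (3 libraries) were homozygous for the GFP-tagged allele with no point mutation, and 1 further control library was input. The deletion, the retrovirus with its drug selection and any difference in the tag cannot be told apart in the comparison of Smchd1_del with control NSCs. CTCF occupancy does not measure expression, so the labelled cell type was not checked against markers.

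Levels are log2 reads per M mapped reads (RPM) over a peak, as the authors' mean over the libraries of a genotype, with no SD and no n behind any value, so no p-value is given. The geometric mean library size was 49.2 M, 49.98 M and 41.7 M reads in MommeD43-GFP, Smchd1_del and control NSCs. The median peak of the whole table rested on 34.9, 34.5 and 30.0 reads in each library of those genotypes. Errors given with ± are counting errors of the reads behind a value. They leave out the spread between libraries, which cannot be had from pooled values. Over all peaks the SD of the difference between MommeD43-GFP and control was 0.43, against a median counting error of 0.21, so that a difference beyond its counting error is common. Counts of member peaks are therefore read against the share of all peaks that met the same rule.

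The genes differ greatly in length and so in the number of their peaks. *Nfia* (chr4:97772734-98118874, plus strand) held 60 peaks over its 346 kb and *Nfib* (chr4:82290173-82705750, minus strand) held 64 over 416 kb. *Pax6* (chr2:105668900-105697364) held 10, *Emx2* (chr19:59458372-59465357) and *Lhx2* (chr2:38339281-38369733) held 8 each, *Olig2* (chr16:91225457-91228677) held 6 and *Nr2e1* (chr10:42561963-42583632, minus strand) held 5. Of the 161 peaks, 108 were intronic, 25 intergenic, 11 exonic and 17 lay within 1 kb of a transcript start. A peak covered the annotated gene start at *Emx2*, *Nr2e1* and *Olig2*. The nearest peak was 350 bp upstream of the start at *Pax6*, 481 bp upstream at *Lhx2*, 951 bp upstream at *Nfib* and 2067 bp inside the gene at *Nfia*. At the 5 shorter genes 83.8% of peaks reached the median level of all peaks, and at *Nfia* and *Nfib* together 33.9% did. These levels are not divided by length, and the median peak length was 1050 bp in the first group and 600 bp in the second. Per kb of peak their median log2 levels were closer, at 0.095 and -0.093.

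Per kb of peak, *Emx2* carried the most reads of the 7 genes and *Nfia* the fewest in control cells. Summed over its peaks *Emx2* had 1.56, 1.51 and 1.65 RPM per kb in MommeD43-GFP, Smchd1_del and control NSCs, and *Nfia* had 1.04, 1.11 and 0.938. Over all peaks of the table the same ratio was 1.31, 1.32 and 1.31, and reads spread evenly over the genome would give 0.367. The other 5 genes ranged from 0.916 to 1.52 over the 3 genotypes.

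Few of these peaks held a strict match to the CTCF motif. A core motif of 12 letters was found in 2 of the 161 peaks (1.24%), against 3.79% of all peaks, and a relaxed form with its positions 3 to 5 left free was found in 20 (12.4%), against 17.0%. Both core matches were at *Nfib*. None of the 13 member peaks over 2 kb had a core match, whereas 18.5% of all peaks of that length did. The core matches, and relaxed matches in a tall peak each of *Lhx2*, *Pax6* and *Emx2*, are given from the RefSeq GRCm38.p6 sequence. They are printed 5′ to 3′ on the strand of the match, with the 12 matched letters in capitals. The positions named here are those of the capitals.
Nfib intron, chr4:82614370-82614381, minus strand, core: aacaaattgCCACTAGATGGCactgcttgt
Nfib upstream, chr4:82716068-82716079, plus strand, core: agaggggccCCACCAGGTGGCcagaaaaag
Lhx2 downstream, chr2:38376152-38376163, minus strand, relaxed: cgaggtgcaCCGCCAGGGGGCgctctctgc
Pax6 intron, chr2:105688293-105688304, minus strand, relaxed: tgactaaatCCTATAGAGGGCctgggtatt
Emx2 body, chr19:59461627-59461638, minus strand, relaxed: gcagaagtaCCATTAGGGGGCctcccaggc
Emx2 body, chr19:59461651-59461662, minus strand, relaxed: gtgtcgttcCCTGCAGGGGGCagagcagaa
The *Lhx2* site departs from the core motif at position 3 alone, and the *Pax6* site at 2 of the free positions.

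A single 12-letter string, CCAGAAGAGGGC, accounted for 7 of the 21 matches that were relaxed only. It lay in 7 peaks of *Lhx2*, *Nfib*, *Nr2e1* and *Olig2*, departs from the core motif at position 5 alone, and was in every case in sequence that RefSeq marks as repetitive. The same string was in 16713 peaks (7.40%) of the whole table, 99.7% of its copies there in marked repeats, against 4.35% of the member peaks. Mouse B2 repeats are known to carry CTCF motifs, but repeat families were not annotated here. The copies from 3 tall peaks are printed here, and their left flanks differ. The 9 letters to the left of the *Nr2e1* upstream copy also preceded the string in peaks of *Lhx2* and *Nfib*.
Nr2e1 start, chr10:42586947-42586958, minus strand: ccacggaggCCAGAAGAGGGCgtcagatct
Nr2e1 upstream, chr10:42599589-42599600, plus strand: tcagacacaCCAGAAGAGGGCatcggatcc
Olig2 upstream, chr16:91218137-91218148, plus strand: ccatgaaatCCAGAAGAGGGCaccacatcc
A match is only a description of these letters and was not tested as a binding site.

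Across the 161 peaks, differences between genotypes were small. In MommeD43-GFP against control NSCs the median log2 difference was 0.060 (0.0069 over all peaks), and 96 of 161 peaks were above 0 (59.6%, against 50.8% of all peaks). In Smchd1_del against control NSCs the median was 0.071 (-0.036 over all peaks), with 87 above 0 (54.0%, against 46.6%). In these comparisons the 5 shorter genes had medians of -0.066 and -0.070, and *Nfia* and *Nfib* together had 0.091 and 0.16. Both comparisons share the control column. In MommeD43-GFP against Smchd1_del NSCs the median was -0.060 (0.035 over all peaks), with 64 above 0 (39.8%, against 53.9%). Summed over the 161 peaks, RPM came to 203, 205 and 200 in MommeD43-GFP, Smchd1_del and control NSCs.

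Peaks at least 2-fold apart were rare. Against control, MommeD43-GFP NSCs had 2 peaks past 2-fold on the higher side (1.24%, against 2.08% of all peaks) and 1 on the lower side (0.621%, against 0.718%). Smchd1_del NSCs had 6 on the higher side (3.73%, against 3.31%) and 0 on the lower side (against 1.85%). Between the mutants MommeD43-GFP was the higher at 1 peak (0.621%, against 1.26%) and the lower at 2 (1.24%, against 1.08%). All of these were among the 88 member peaks below the median level of the table, where such shares are larger. Of all peaks below it, 3.76% were higher and 1.38% lower in MommeD43-GFP than in control, 5.08% and 3.37% in Smchd1_del than in control, and 2.4% and 1.93% in MommeD43-GFP relative to Smchd1_del. Among the 73 member peaks at or above the median level, 0 were 2-fold apart in any comparison. Of all peaks at or above it, 0.41% were higher and 0.0585% lower in MommeD43-GFP than in control, 1.54% and 0.34% in Smchd1_del than in control, and 0.114% and 0.23% in MommeD43-GFP relative to Smchd1_del.

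**Figure D1:**
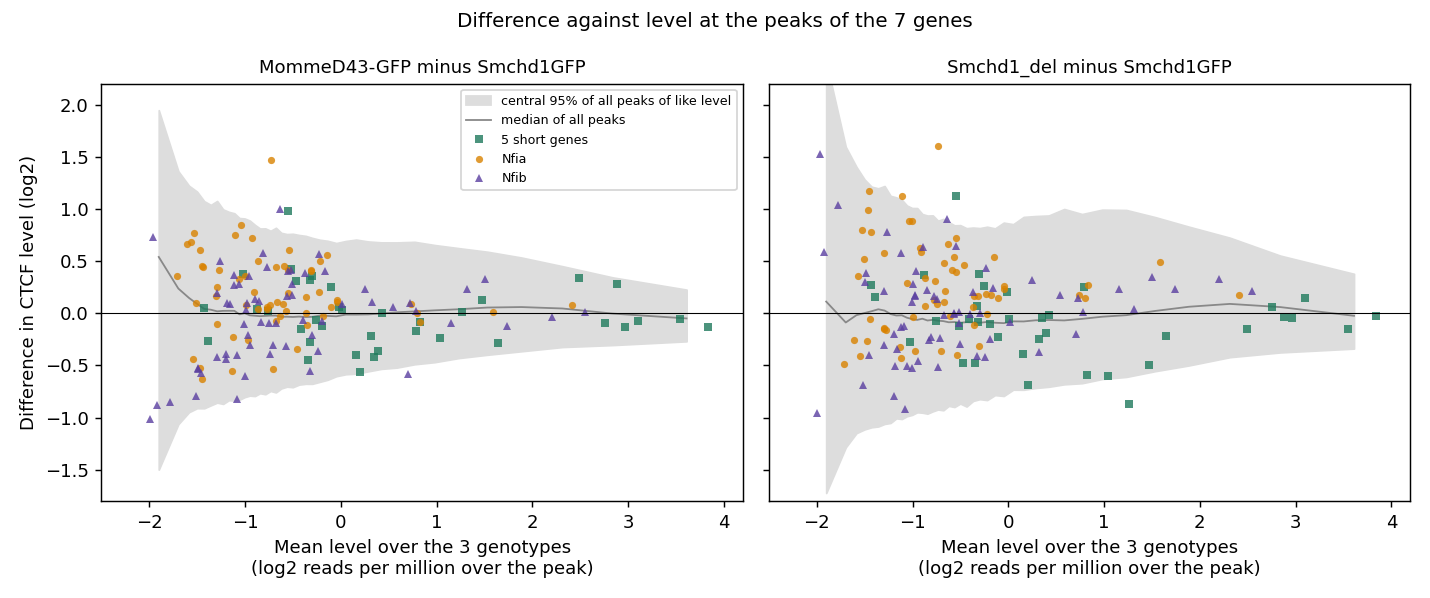
Difference in CTCF level from control (log2) against the mean level over the 3 genotypes (log2 RPM over the peak), for MommeD43-GFP (left) and Smchd1_del (right) NSCs. Each point is a peak, the grey band holds the central 95% of all peaks of like level and the grey line is their median. The *Nfia* peak at 1.47 and 1.60 stands above the band in both panels, and the tallest *Pax6* peak, the square at -0.87, lies below the band on the right.

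Counting errors gave a wider set of peaks. Past 1.96 counting errors, 25 of the 161 peaks were higher and 22 lower in MommeD43-GFP than in control NSCs (15.5% and 13.7%, against 17.1% and 15.2% of all peaks). In Smchd1_del against control NSCs 31 were higher and 16 lower (19.3% and 9.94%, against 17.5% and 18.4%), and in MommeD43-GFP against Smchd1_del NSCs 21 were higher and 24 lower (13.0% and 14.9%, against 15.1% and 13.9%). The genes did not share a direction. Of the 37 peaks of the 5 shorter genes, 4 were higher and 9 lower in MommeD43-GFP than in control NSCs (10.8% and 24.3%). In Smchd1_del against control NSCs 2 were higher and 9 lower (5.41% and 24.3%). At the 124 peaks of *Nfia* and *Nfib* the numbers were 21 higher and 13 lower (16.9% and 10.5%), and 29 higher and 7 lower (23.4% and 5.65%). These 2 genes were unlike in MommeD43-GFP NSCs, with 14 higher and 3 lower at *Nfia* and 7 higher and 10 lower at *Nfib*.

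*Pax6*, a master regulator of eye and forebrain development, showed the lowest sums relative to control. Its 10 peaks summed to 11.9, 10.4 and 13.1 RPM in MommeD43-GFP, Smchd1_del and control NSCs. The log2 difference of the sums was -0.14 ± 0.050 for MommeD43-GFP and -0.32 ± 0.057 for Smchd1_del NSCs, while 4 of 10 peaks were above 0 in each comparison with control (against 50.8% and 46.6% of all peaks). Past 1.96 counting errors 3 were lower in MommeD43-GFP and 4 in Smchd1_del NSCs (against 15.2% and 18.4% of all peaks), and 0 were higher in either (against 17.1% and 17.5%). The medians over peaks were -0.19 and -0.26. That of MommeD43-GFP was -0.070 after centring within bins of GC content and -0.077 over the gene body alone, and that of Smchd1_del was -0.48 over the gene body alone.

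The tallest *Pax6* peak, intronic at chr2:105686851-105688650 and holding the relaxed match printed above, set the Smchd1_del cells apart. Its level was 1.57 in MommeD43-GFP, 0.68 in Smchd1_del and 1.55 in control NSCs, from 146, 79.9 and 122 reads per library. The log2 difference from control was 0.02 ± 0.10 in MommeD43-GFP and -0.87 ± 0.14 in Smchd1_del NSCs, and between the mutants it was 0.89 ± 0.13. MommeD43-GFP and control NSCs lay together here, with Smchd1_del NSCs 1.83-fold below control.

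The peak that ends 350 bp upstream of the *Pax6* start (chr2:105666301-105668550, within *Pax6os1*, the antisense transcript of the locus) was also lowest in Smchd1_del NSCs. Here MommeD43-GFP NSCs lay between Smchd1_del and control NSCs. Its level was 1.08, 0.72 and 1.32 in MommeD43-GFP, Smchd1_del and control NSCs, with differences from control of -0.24 ± 0.12 and -0.60 ± 0.14. A peak over coding exons beside a later transcript start (chr2:105692401-105693900) was lower than control in both mutants, at 0.05, -0.07 and 0.62, with differences of -0.56 ± 0.16 and -0.68 ± 0.18. The peak at an internal promoter 7.60 kb into the gene (chr2:105675901-105677100), the densest of *Pax6* per kb, went the other way in the deletion, at 0.59, 1.01 and 0.76, with differences of -0.17 ± 0.14 and 0.25 ± 0.14. The remaining 6 peaks were between -0.48 and 0.38 from control. The exonic peak at chr2:105695101-105695700, with levels of -0.68, -1.34 and -1.06, had the highest *Pax6* difference of MommeD43-GFP from control (0.37 ± 0.24). The peak at chr2:105648301-105649350, with -0.19, -0.17 and -0.55, had that of Smchd1_del (0.38 ± 0.22). The lowest *Pax6* difference between the mutants, -0.43 ± 0.30, was at chr2:105650101-105650400, at -1.62 in MommeD43-GFP, -1.20 in Smchd1_del and -1.35 in control NSCs.

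*Emx2*, which patterns the caudal and medial cortex, had broad and tall peaks on either side of its start. A 6000 bp peak in an intron of the antisense gene *Emx2os* (chr19:59451001-59457000) had levels of 3.56, 3.46 and 3.61 in MommeD43-GFP, Smchd1_del and control NSCs, above 98.6% of all peaks. The peak across the gene body (chr19:59458951-59463750, with the pair of adjacent relaxed matches printed above) had 2.89, 2.98 and 3.02. In each the 3 genotypes were within 0.15 of one another.

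The peak over the *Emx2* start (chr19:59457601-59458800, over the 5′ ends of *Emx2* and *Emx2os*) was lowest in MommeD43-GFP NSCs. Its level was 0.09, 0.46 and 0.51 in MommeD43-GFP, Smchd1_del and control NSCs, and the differences from control were -0.42 ± 0.16 and -0.05 ± 0.16. An intergenic peak 11.1 kb past the start (chr19:59468551-59470350) was instead lowest in Smchd1_del NSCs, at 1.72, 1.10 and 1.60, with differences from control of 0.13 ± 0.10 and -0.49 ± 0.12 and a difference of 0.62 ± 0.12 between the mutants. Beyond these, the highest *Emx2* difference of Smchd1_del from control was 0.26 ± 0.21, at chr19:59476051-59476950. Summed over 8 peaks, the log2 difference from control was -0.075 ± 0.034 in MommeD43-GFP and -0.13 ± 0.038 in Smchd1_del NSCs.

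*Lhx2*, a selector gene of cortical identity, had the tallest peak of all 161 outside its body. The 6900 bp intergenic peak centred 37.3 kb past the start (chr2:38373151-38380050) had levels of 3.76, 3.86 and 3.89 in MommeD43-GFP, Smchd1_del and control NSCs, from 667, 726 and 617 reads per library, above 99.2% of all peaks and above 95.9% per kb. Its near-core match is printed above. The differences from control were -0.13 ± 0.05 and -0.03 ± 0.05.

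The *Lhx2* promoter peak, 481 bp upstream of the start (chr2:38338051-38338800), was low in control cells. Its level was -0.27 in MommeD43-GFP, -0.13 in Smchd1_del and -1.25 in control NSCs, or 40.7, 45.7 and 17.5 reads per library. It was higher than control by 0.98 ± 0.24 in MommeD43-GFP and by 1.12 ± 0.25 in Smchd1_del NSCs, or 1.98-fold and 2.18-fold, and the mutants lay within 0.14 of each other. Both differences rest on the same 17.5 control reads per library. Upstream of it, an intergenic peak at chr2:38335201-38336100 had -0.20, -0.74 and -0.62, which was the largest *Lhx2* difference between the mutants at 0.54 ± 0.23. The most distant peak (chr2:38386051-38388150) had 0.96, 0.45 and 1.05, a difference of -0.59 ± 0.15 between Smchd1_del and control NSCs. The intronic peak at chr2:38362201-38362950 was the lowest *Lhx2* peak of MommeD43-GFP NSCs relative to either other genotype, with -0.47, -0.29 and -0.20. Over the 8 peaks together the sums differed from control by -0.035 ± 0.038 and -0.047 ± 0.042.

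*Nr2e1* held 5 peaks, all at or above the median level. The 4800 bp peak over its start (chr10:42582751-42587550) also covers the 5′ end of *Ostm1*, the gene on its other side, and is the tallest, with levels of 2.68, 2.82 and 2.77 in MommeD43-GFP, Smchd1_del and control NSCs. The 3300 bp peak in an intron of *Ostm1*, 17.3 kb upstream (chr10:42599251-42602550), was highest in MommeD43-GFP NSCs, at 2.76, 2.28 and 2.43. Its differences were 0.33 ± 0.07 from control and 0.49 ± 0.08 from Smchd1_del, while Smchd1_del differed from control by -0.15 ± 0.09. Both of these peaks hold the repeated 12-letter string.

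Inside *Nr2e1*, a peak over coding sequence near a later transcript start (chr10:42566851-42567900) was lower in both mutants, at 0.02 in MommeD43-GFP, 0.02 in Smchd1_del and 0.42 in control NSCs. The differences from control were -0.40 ± 0.16 and -0.39 ± 0.18. The most distant downstream peak (chr10:42556951-42558150), with a further copy of the string, had 0.21, 0.39 and 0.58. The peak beside it (chr10:42559801-42560700) had -0.04, 0.10 and -0.10, the highest *Nr2e1* difference of Smchd1_del from control at 0.20 ± 0.19. The sums of the 5 peaks differed from control by 0.034 ± 0.044 in MommeD43-GFP and -0.058 ± 0.049 in Smchd1_del NSCs.

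*Olig2* is a short gene whose start sits within a 4050 bp peak (chr16:91222951-91227000). That peak is the densest of *Olig2*, above 96.1% of all peaks per kb, and had levels of 3.00, 3.22 and 3.07 in MommeD43-GFP, Smchd1_del and control NSCs. The differences from control were -0.08 ± 0.06 and 0.15 ± 0.06, and that between the mutants was -0.22 ± 0.06. The 5700 bp peak upstream (chr16:91215001-91220700), with the copy of the string printed above, had 3.08, 2.76 and 2.80, higher than control by 0.28 ± 0.06 in MommeD43-GFP NSCs and within 0.04 of control in Smchd1_del NSCs. MommeD43-GFP NSCs therefore had the highest level at the upstream peak and the lowest at the start.

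The remaining *Olig2* peaks were smaller. The peak at chr16:91207801-91208550 had -0.11, -0.89 and -0.41, with differences from control of 0.31 ± 0.19 and -0.48 ± 0.25 and a difference of 0.78 ± 0.23 between the mutants. The peak downstream of the gene (chr16:91231501-91234200) had 1.53, 1.60 and 1.81, a difference of -0.28 ± 0.10 between MommeD43-GFP and control NSCs. The most distant downstream peak (chr16:91248001-91248300) had -1.49, -1.27 and -1.54, with a difference of 0.27 ± 0.31 between Smchd1_del and control NSCs. Over the 6 peaks the sums differed from control by 0.044 ± 0.038 and 0.0045 ± 0.042.

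**Figure D2:**
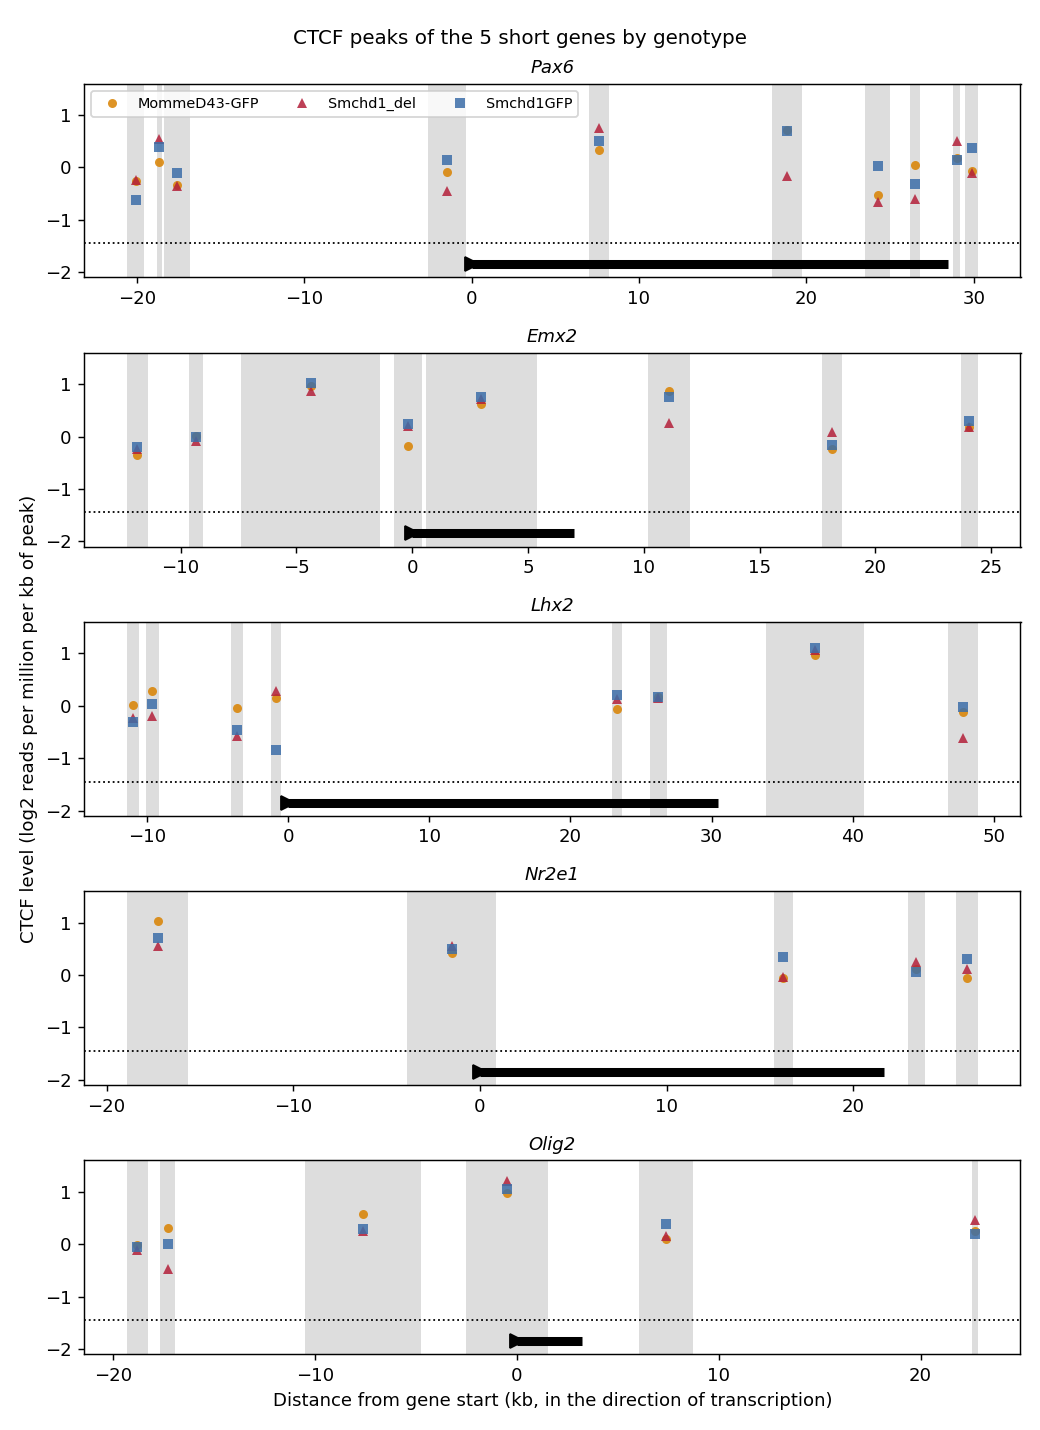
CTCF level per kb of peak (log2 RPM per kb) at each peak of *Pax6*, *Emx2*, *Lhx2*, *Nr2e1* and *Olig2*, against distance from the gene start in kb along transcription, with circles for MommeD43-GFP, triangles for Smchd1_del and squares for Smchd1GFP (control). Grey spans are the peaks, the black bar is the gene body with an arrowhead at its start, and the dotted line at -1.45 is an even spread of reads over the genome. At the peaks of *Emx2*, *Lhx2*, *Nr2e1* and *Olig2* that are tallest before division by length, the 3 symbols lie within 0.22. At the *Nr2e1* peak that is highest per kb, upstream of the start, the mutants are 0.49 apart. Symbols also separate further at other peaks, as at the *Pax6* peak 18.9 kb past the start and the *Lhx2* promoter peak.

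*Nfia*, needed for the onset of gliogenesis, differed from control in the same direction at most of its peaks. Of 60 peaks, 46 were above 0 in MommeD43-GFP (76.7%, against 50.8% of all peaks) and 42 in Smchd1_del NSCs (70.0%, against 46.6%), with medians of 0.12 and 0.18. Past 1.96 counting errors 14 peaks were higher and 3 lower in MommeD43-GFP NSCs, and 17 were higher and 0 lower in Smchd1_del NSCs. The higher ones were 23.3% and 28.3% of its peaks, against 17.1% and 17.5% of all peaks, and of all peaks 15.2% and 18.4% were lower. After centring within bins of GC content the MommeD43-GFP median was 0.075. Summed RPM were 46.6, 49.8 and 41.9 in MommeD43-GFP, Smchd1_del and control NSCs, a log2 difference from control of 0.15 ± 0.027 and 0.25 ± 0.029 and of -0.097 ± 0.027 between the mutants. These counts share 1 control column and come from peaks of 1 locus, so they are not repeated measurements of a difference.

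Medians were above 0 at *Nfia* peaks of either level. Those whose level reached the median of the table, 18 in all, had medians of 0.082 in MommeD43-GFP and 0.17 in Smchd1_del NSCs relative to control, against -1.8e-05 and -0.035 for all peaks of that level. The other 42 had 0.20 and 0.30, against 0.020 and -0.038. The tallest peak (intronic, chr4:98002051-98005350) had levels of 2.40, 2.50 and 2.33 in MommeD43-GFP, Smchd1_del and control NSCs, and differed from control by 0.08 ± 0.08 and 0.17 ± 0.08. The densest per kb, in an intron near the 3′ end (chr4:98108701-98110200), had 1.43, 1.91 and 1.42, where Smchd1_del NSCs alone stood apart, by 0.49 ± 0.11 from control.

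The largest *Nfia* difference was at an intronic peak 14.9 kb into the gene (chr4:97787251-97788000). Its level was -0.29 in MommeD43-GFP, -0.16 in Smchd1_del and -1.76 in control NSCs, or 40.2, 44.8 and 12.3 reads per library. It was 2.77-fold higher than control in MommeD43-GFP and 3.03-fold higher in Smchd1_del NSCs (1.47 ± 0.27 and 1.60 ± 0.28), and the mutants differed by -0.13 ± 0.20. Per kb the control level of this peak was -1.34, close to the -1.45 of an even spread of reads, and the mutants were at 0.13 and 0.26.

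A further pair of intronic peaks was at least 2-fold higher in Smchd1_del NSCs. The peak at chr4:97840951-97841400 had -1.54, -0.82 and -2.00, a difference of 1.17 ± 0.32, and that at chr4:97962601-97963050 had -0.98, -0.60 and -1.73, a difference of 1.13 ± 0.29. In both, MommeD43-GFP NSCs lay between the other genotypes. At chr4:97967551-97968750 the levels were 0.0021 in MommeD43-GFP, -1.01 in Smchd1_del and -0.61 in control NSCs, and MommeD43-GFP was 2.02-fold above Smchd1_del (1.01 ± 0.24).

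The lowest *Nfia* values were of smaller size. The intronic peak at chr4:97944601-97944900 had -1.85, -1.28 and -1.22, a difference of -0.63 ± 0.30 between MommeD43-GFP and control NSCs. The exonic peak at chr4:98041651-98041950 had -1.31, -2.15 and -1.67, a difference of -0.48 ± 0.38 between Smchd1_del and control NSCs. The intronic peak at chr4:98037601-98038650 had -0.84, -0.04 and -0.50, a difference of -0.80 ± 0.22 between the mutants. MommeD43-GFP NSCs were lowest of the 3 genotypes at both intronic peaks and Smchd1_del NSCs at the exonic one.

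*Nfib*, the paralog that acts beside *Nfia* in gliogenesis, lies on the same chromosome and had medians near 0. Of 64 peaks, 33 were above 0 in MommeD43-GFP and 34 in Smchd1_del NSCs relative to control (51.6% and 53.1%, against 50.8% and 46.6% of all peaks), with medians of 0.016 and 0.013 (0.0069 and -0.036 over all peaks). Past 1.96 counting errors 7 were higher and 10 lower in MommeD43-GFP NSCs (10.9% and 15.6%, against 17.1% and 15.2% of all peaks), and 12 were higher and 7 lower in Smchd1_del NSCs (18.8% and 10.9%, against 17.5% and 18.4%). The sums were 58.6, 62.2 and 58.5 RPM in MommeD43-GFP, Smchd1_del and control NSCs, a log2 difference from control of 0.0033 ± 0.023 and 0.088 ± 0.025. Per kb, *Nfib* had 1.17, 1.24 and 1.17 RPM, above *Nfia* in every genotype.

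Both peaks with a core motif were at *Nfib*. The intronic peak at chr4:82613551-82615350 had levels of 1.58, 1.93 and 1.701 in MommeD43-GFP, Smchd1_del and control NSCs, and differed from control by -0.12 ± 0.10 and 0.23 ± 0.10, with -0.35 ± 0.10 between the mutants. The peak 9.80 kb upstream of the gene (chr4:82715551-82716750) had 0.79, 0.78 and 0.77, differences from control of 0.02 ± 0.13 and 0.01 ± 0.15. The tallest *Nfib* peak (chr4:82642651-82645200, at the promoter of *Gm11268*, a gene within *Nfib*) holds no match and is the densest of all 161, above 97.1% of all peaks per kb, at 2.48, 2.68 and 2.47. In the tallest and the intronic core peak, Smchd1_del NSCs had the highest level of the 3 genotypes.

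Peaks of *Nfib* at least 2-fold apart were all short and low, and they went in either direction. The peak at chr4:82306501-82307100 had -0.27, -0.37 and -1.27, higher than control by 1.001 ± 0.24 in MommeD43-GFP and by 0.91 ± 0.26 in Smchd1_del NSCs. The peak at chr4:82312051-82312350 had -1.99, -1.19 and -2.71, a difference of 1.52 ± 0.40 between Smchd1_del and control NSCs that rests on 21.9 and 6.35 reads per library. The peak at chr4:82315201-82315500 had -2.35, -2.29 and -1.34, with differences from control of -1.01 ± 0.34 in MommeD43-GFP and -0.96 ± 0.38 in Smchd1_del NSCs. These 3 peaks are neighbours in 1 intronic stretch and lie on opposite sides of control.

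The widest gap between the mutants was also at *Nfib*. An intronic peak at chr4:82452601-82453200 had -2.69 in MommeD43-GFP, -0.81 in Smchd1_del and -1.84 in control NSCs, from 7.61, 28.6 and 11.6 reads per library. MommeD43-GFP was 3.70-fold lower than Smchd1_del (-1.89 ± 0.36) with control between them, and Smchd1_del was higher than control by 1.04 ± 0.31. A downstream intergenic peak at chr4:82285951-82286250 showed the same order, at -2.71, -1.24 and -1.82, with -1.47 ± 0.38 between the mutants. The largest difference the other way, 0.81 ± 0.25, was at chr4:82632751-82633500, with -0.34, -1.15 and -0.93.

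**Figure D3:**
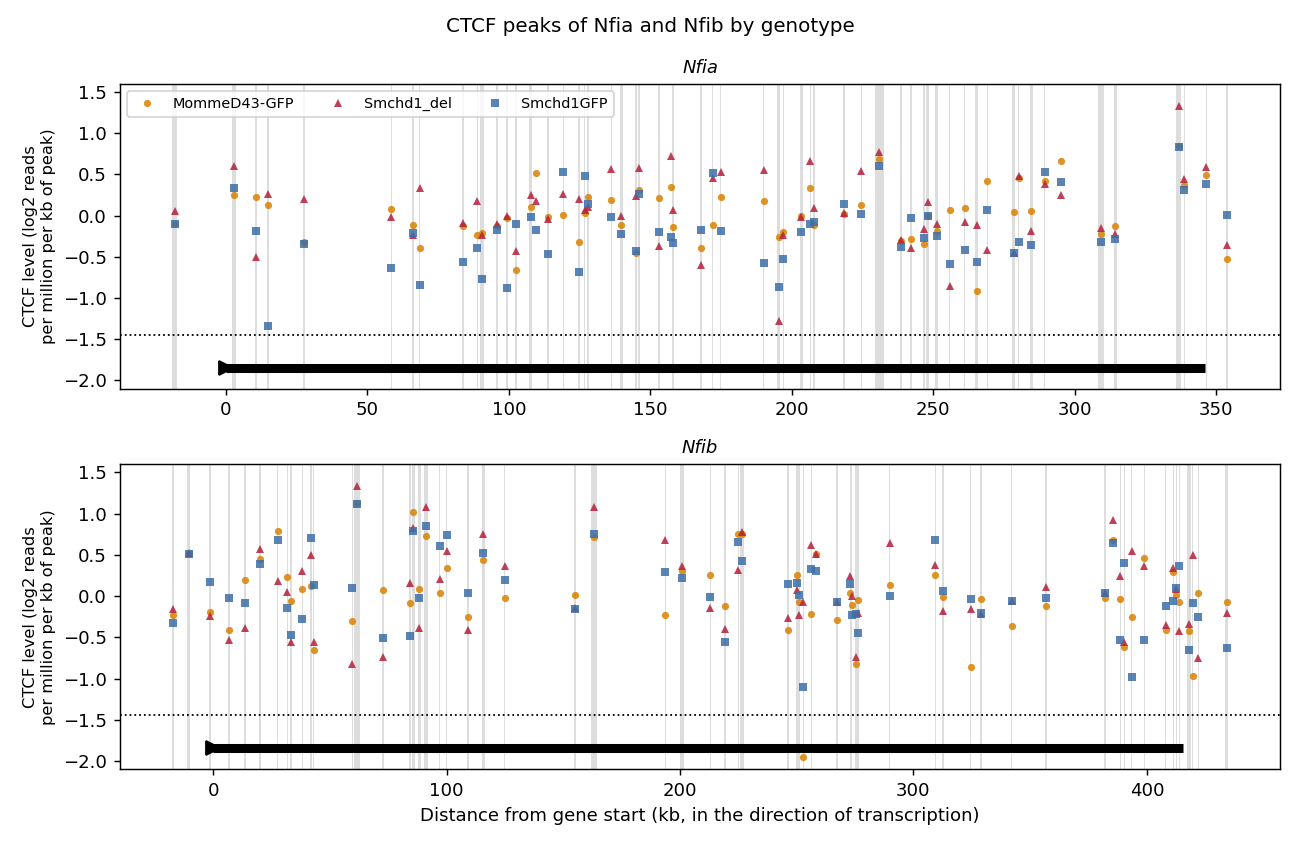
CTCF level per kb of peak (log2 RPM per kb) at each peak of *Nfia* (top) and *Nfib* (bottom), against distance from the gene start in kb along transcription, with circles for MommeD43-GFP, triangles for Smchd1_del and squares for Smchd1GFP (control). Grey spans, black bars and the dotted line at -1.45 mark peaks, gene bodies and an even spread of reads over the genome. Many *Nfia* squares lie below their circles and triangles, as at 14.9 kb, where control is at -1.34 per kb, and the lowest *Nfib* circle is the MommeD43-GFP value of -1.96 at 253 kb.

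**Figure D4:**
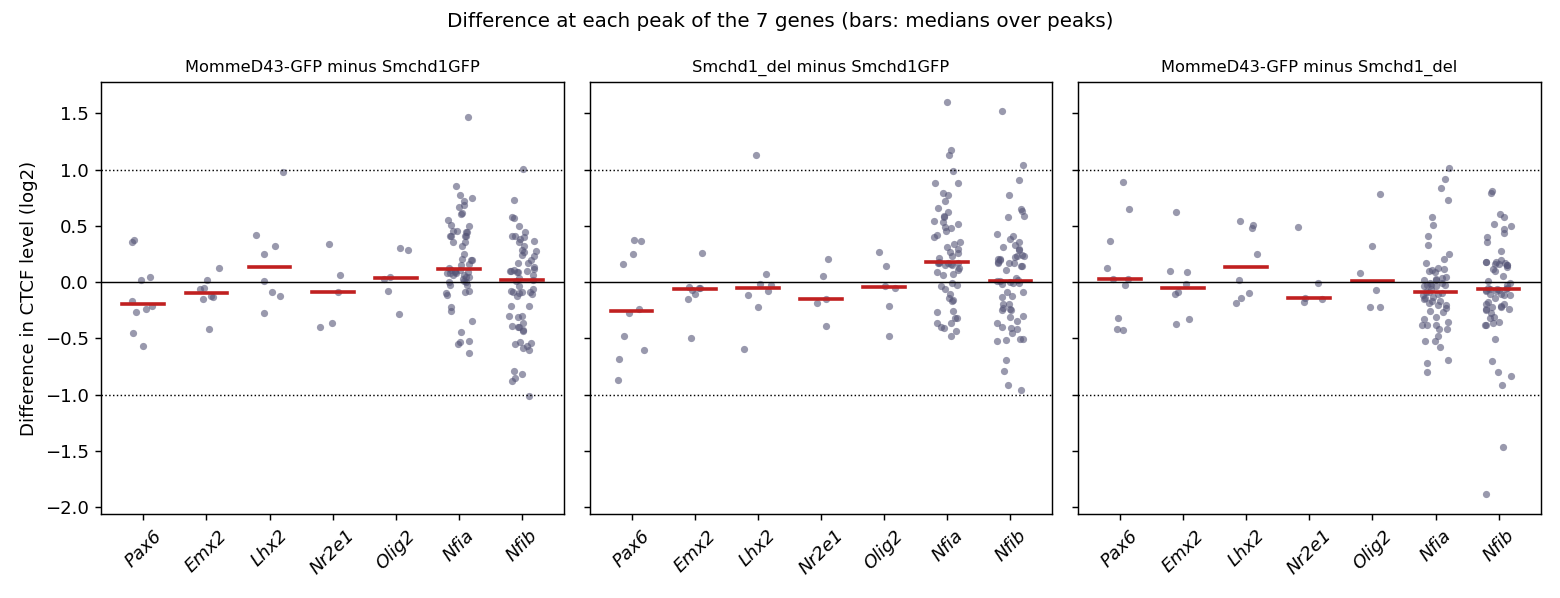
Difference in CTCF level (log2) at each peak of the 7 genes for MommeD43-GFP minus control, Smchd1_del minus control and MommeD43-GFP minus Smchd1_del. Points are peaks, red bars are medians over the peaks of a gene and dotted lines mark 2-fold. The *Nfia* medians of 0.12 and 0.18 lie above 0 in the comparisons with control and the *Pax6* medians of -0.19 and -0.26 below it.

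Other genes of the progenitor programme were taken with the same window for comparison: *Emx1*, *Gli3*, *Dmrta2*, *Dmrt3*, *Nfix*, *Nfic*, *Olig1*, *Pou3f2*, *Pou3f3* and *Otx1*. Their 99 peaks had median log2 differences of 0.041 in MommeD43-GFP and 0.030 in Smchd1_del NSCs from control, and -0.012 between the mutants. Of the 99, 57 and 54 were above 0 relative to control (57.6% and 54.5%, against 50.8% and 46.6% of all peaks). At least 2-fold apart from control were 2 peaks higher and 0 lower in MommeD43-GFP NSCs (2.02% higher, against 2.08% and 0.718% of all peaks), and 2 higher and 0 lower in Smchd1_del NSCs (2.02% higher, against 3.31% and 1.85%). Between the mutants 0 were higher and 1 lower in MommeD43-GFP NSCs (against 1.26% and 1.08% of all peaks). A core motif was in 5 of these peaks (5.05%, against 3.79% of all peaks), 3 of them at *Nfix*. *Gli3*, the other long gene, had 40 peaks with medians of 0.066 and 0.20 from control. Of these peaks 65.0% and 67.5% were above 0. The paralogs *Nfix* and *Nfic* had medians of -0.038 and -0.12 in MommeD43-GFP and -0.080 and -0.081 in Smchd1_del NSCs. Over these 10 genes medians ranged from -0.12 at *Nfic* (5 peaks) to 0.20 at *Otx1* (4 peaks) in MommeD43-GFP NSCs. In Smchd1_del NSCs they ranged from -0.24 at *Olig1* (6 peaks) to 0.48 at *Pou3f2* (7 peaks). The *Nfia* medians lay within these ranges, whose ends rest on far fewer peaks than *Nfia* has.

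Since core motif peaks were nearly absent at the 7 genes, the nearest ones on either side were looked up. They stood 68.0 kb upstream and 276 kb downstream of the *Emx2* body, 239 kb and 733 kb from *Pax6*, 152 kb and 127 kb from *Lhx2*, 111 kb and 205 kb from *Nr2e1*, 118 kb and 128 kb from *Olig2*, and 1085 kb and 124 kb from *Nfia*. For *Nfib* the upstream one was the peak at 9.80 kb described above and the downstream one was 1037 kb away. The peak upstream of *Emx2* (chr19:59386351-59390400), with its motif on the strand of the gene, had levels of 3.21, 3.47 and 3.15 in MommeD43-GFP, Smchd1_del and control NSCs, differences from control of 0.055 ± 0.058 and 0.32 ± 0.061.
Emx2 flank, chr19:59389394-59389405, plus strand, core: tacagttaaCCACCAGGGGGCagcatgtaa
The peak downstream of *Pax6* (chr2:106430251-106431750) had 1.36, 1.97 and 0.91 and was the only flanking core peak at least 2-fold apart. It was higher by 1.06 ± 0.12 in Smchd1_del than in control NSCs. Of all peaks 3.31% were at least 2-fold higher in that comparison, and 1.54% of those at or above the median level. At the *Pax6* peaks themselves Smchd1_del NSCs had the lower sum, and a link to this peak 733 kb away was not tested.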

How the data were processed

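CTCF ChIP-seq of 9 libraries was made by the authors, who trimmed reads with Trim Galore 0.4.4 and cutadapt 2.9, checked them with FastQC 0.11.8, mapped them to GRCm38.p5 with Bowtie2 2.3.4.1 and handled them with SAMtools 1.7 and R 4.2.0, per the labels. SeqMonk was used to call peaks per genotype, and overlapping peaks were merged. Values were deposited as log2 reads per M of the library (RPM) for each merged peak, averaged by the authors over libraries and not divided by length. A broad peak therefore has a high level for its length alone. Summed reads were set side by side between genes per kb. Tallest peaks and shares at or above the median level were taken from levels not divided by length. Duplicate removal and input subtraction are not given in the sources used here, and the input library was not used. The 3 value columns were all assigned, and 0 columns were left out.

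At low values the product of the read numbers of a genotype's libraries came out whole (100% within 0.01, with 0 reads entered as 0.9). From this came reads per library, as geometric means over the libraries, and counting errors. Intervals cover counting only. Pooled columns allow no test, so differences of log2 values were counted at 2-fold and past 1.96 counting errors beside the share of all peaks. For each gene the text names the tallest peak, the peak over the start, peaks with a core motif, the outermost differences and all peaks 2-fold apart; the *Pax6* peaks at promoters, the densest peaks per kb and the remaining tall peaks were added after their values were seen. Members and lists were chosen with earlier results of these data known. Some genes of the comparison list are not reported here. Motifs were searched on both strands of RefSeq GRCm38.p6. Alternatives were other scalings, pseudocounts, windows, thresholds and filters. Scripts were tested on simulated data and used matplotlib 3.10.9 and statsmodels 0.14.6 with pandas 2.3.3, scipy 1.17.1 and numpy 2.4.6 under Python 3.11.15.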

Additional observations from a re-analysis of the deposited data

How the results depend on the processing

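No paired analysis was possible because the table gives 1 pooled value per genotype, and for the same reason leaving out single libraries was not run. The causes of the shifts listed here were not tested. The *Nfia* medians stayed above 0 in both comparisons with control under all 11 alternatives, between 0.023 and 0.15 for MommeD43-GFP and between 0.032 and 0.26 for Smchd1_del NSCs. The *Pax6* medians stayed below 0, between -0.21 and -0.035 and between -0.48 and -0.043. Adding RPM to every value cannot change the sign of the difference at a peak, so those alternatives could not have turned these signs. Over the medians of single genes, 30 of 231 values under an alternative changed sign, none of them in these 4 sets. Medians over the 161 peaks of MommeD43-GFP minus control, Smchd1_del minus control and MommeD43-GFP minus Smchd1_del were 0.060, 0.071 and -0.060. With 4 RPM added they were 0.0075, 0.012 and -0.0082, and with the 2 core motif peaks alone -0.051, 0.12 and -0.17. Peaks at or above the median level alone gave 0.012 and 0.0063 against control. For Smchd1_del minus control the median was 0.13 with columns centred on their medians, 0.13 with gene bodies alone and 0.0063 with 50 kb on either side. Peaks at least 2-fold higher and lower numbered 2 and 1, 6 and 0, and 1 and 2 in the same order. They were 3 and 0, 7 and 0, and 0 and 2 after centring, 1 and 3, 5 and 0, and 0 and 4 after quantile normalization, 3 and 3, 6 and 0, and 0 and 5 after a loess fit on level, and 2 and 0, 5 and 0, and 1 and 2 after centring within bins of GC content. With gene bodies alone they were 2 and 1, 5 and 0, and 1 and 1, and with 0.1 RPM added 1 and 0, 2 and 0, and 0 and 2. All were 0 with 1 or 4 RPM added, at or above the median level, with core motif peaks alone, or at 4-fold. These 0s were bound to follow, since every 2-fold peak was low and below the median level, both core motif peaks were above it, and the widest gap was under 4-fold. At 1.5-fold they were 12 and 7, 19 and 8, and 11 and 9. Over all peaks, 74.4% of 2-fold differences between MommeD43-GFP and control were higher, against 52.7% after quantile normalization, 41.7% after the loess fit and 61.5% within GC bins. Between the mutants 53.8% were higher in MommeD43-GFP, against 38.9% and 26.5% after quantile normalization and the loess fit. At the smallest peaks named, with under 15 reads per library, counting alone gives a difference an error of 0.27 or more.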
